A study of Bos taurus with 2 samples.

Results

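The cell division genes are 38 genes chosen by name, not by their values, out of the 27270 genes of the deposited count tables. They fall into 3 roles. The 10 S phase members act in DNA replication and nucleotide supply (PCNA, the 6 genes MCM2 to MCM7, TYMS, RRM1 and RRM2), the 4 licensing members act where replication is permitted or switched on (GINS2, CDC6, CDT1 and E2F1), and the 24 mitotic members act from late S phase through chromosome segregation. All 38 symbols were in both tables. Of them, 14 overlap another gene in the RefSeq annotation (assembly ARS-UCD2.0), and the sources used here do not say whether reads were counted by strand, so these genes and their overlapping partners cannot be told apart with certainty.

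The data are 2 single-cell RNA libraries from Holstein dairy cow mammary gland, made with 10x Genomics 3′ chemistry, the first from an adult in lactation and the second from a newborn animal, with no treatment, genotype or number of animals given in the labels. Each count is a unique molecular identifier (UMI), a tag that marks 1 captured RNA molecule. The adult library held 15897 cell barcodes and 85388618 UMIs (median 2723 per barcode) and the newborn library 13772 barcodes and 65597671 UMIs (median 4581). The study states 24472 high-quality cells, and 28401 of the 29669 barcodes passed the filters used here. The libraries shared 57 barcodes. With 1 library per stage there is no replicate and no test, so every interval below is an exact 95% interval that covers counting error only, and stage, animal and library cannot be told apart.

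Cells were assigned to a class by marker genes that include no division gene, and a cell that passed the gates of several lineages was left out. The adult classes were 6122 T cells, 2395 endothelial cells (2254 of them lymphatic), 1220 epithelial cells, 274 neutrophils, 259 mast cells, 234 fibroblasts, 224 macrophages, 181 natural killer (NK) cells, 61 B cells and 34 plasma cells. The newborn library was nearly all fibroblast, with 11901 such cells beside 161 mast cells, 97 endothelial cells, 68 T cells and 25 NK cells, and no cell there was gated as epithelial. In the adult library, 64 of 66 gate markers were highest in the class they name. ESAM was higher in mast (22.9 CPM, UMIs per 1000000 UMIs of the class) than in endothelial cells (10.4 CPM), and CD68 higher in neutrophils (324.7 CPM) than in macrophages (138.4 CPM). In the newborn library 56 of 66 were, with no epithelial class and with 3 B cells and 1 plasma cell. The NK marker NCR1 stood at 140.9 CPM in newborn T cells and 600.8 in newborn NK cells, against 13.4 in adult T cells. CD3E, a chain of the T cell receptor complex, stood at 961.2 CPM in adult T cells against 25.1 in endothelial cells, and DCN, a fibroblast proteoglycan, at 9869 CPM in newborn fibroblasts.

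A dividing cell copies its DNA in S phase and parts the copies in mitosis. The MCM proteins form the helicase that opens the DNA, PCNA is the sliding clamp of the polymerases, and TYMS and the 2 RRM subunits make deoxynucleotides. PCNA, the MCM genes and TYMS also serve repair or are kept at a low level in cells that are not dividing, whereas most mitotic genes are transcribed in G2 and mitosis and their messengers are removed afterwards. In the mammary gland, division of epithelium and stroma is known for growth in late gestation and after birth, and immune cells in the gland can divide as well.

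To compare classes at one depth, a random draw of 1000 UMIs was taken from each cell, and cells with fewer were dropped. Adult T cells then held 1.20 mitotic UMIs per 10000 UMIs (interval 1.12 to 1.29, 5957 cells). Endothelial cells held 0.564 (0.470 to 0.671, 2252 cells), epithelial cells 0.457 (0.337 to 0.606, 1050 cells), fibroblasts 0.402 (0.174 to 0.792, 199 cells) and macrophages 0.350 (0.141 to 0.721, 200 cells). These 4 classes lay below T cells and their intervals overlapped one another. Mast cells held 1.10 (0.730 to 1.59, 255 cells), an interval that overlapped that of T cells, and B cells 2.37 (1.30 to 3.98, 59 cells). In the newborn library, T cells held 3.53 (2.26 to 5.25, 68 cells). By these UMI intervals they lay above every other class of at least 50 cells except B cells, whose interval overlapped theirs. The intervals take UMIs as independent, although these sat in few cells. At this depth 2 of the 68 newborn T cells held at least 2 different mitotic members, or 2.94% (0.358% to 10.2%). That interval overlaps the one for the same share in adult T cells. Newborn fibroblasts held 0.467 (0.427 to 0.509, 11100 cells), within the interval of adult fibroblasts.

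**Figure D1:**
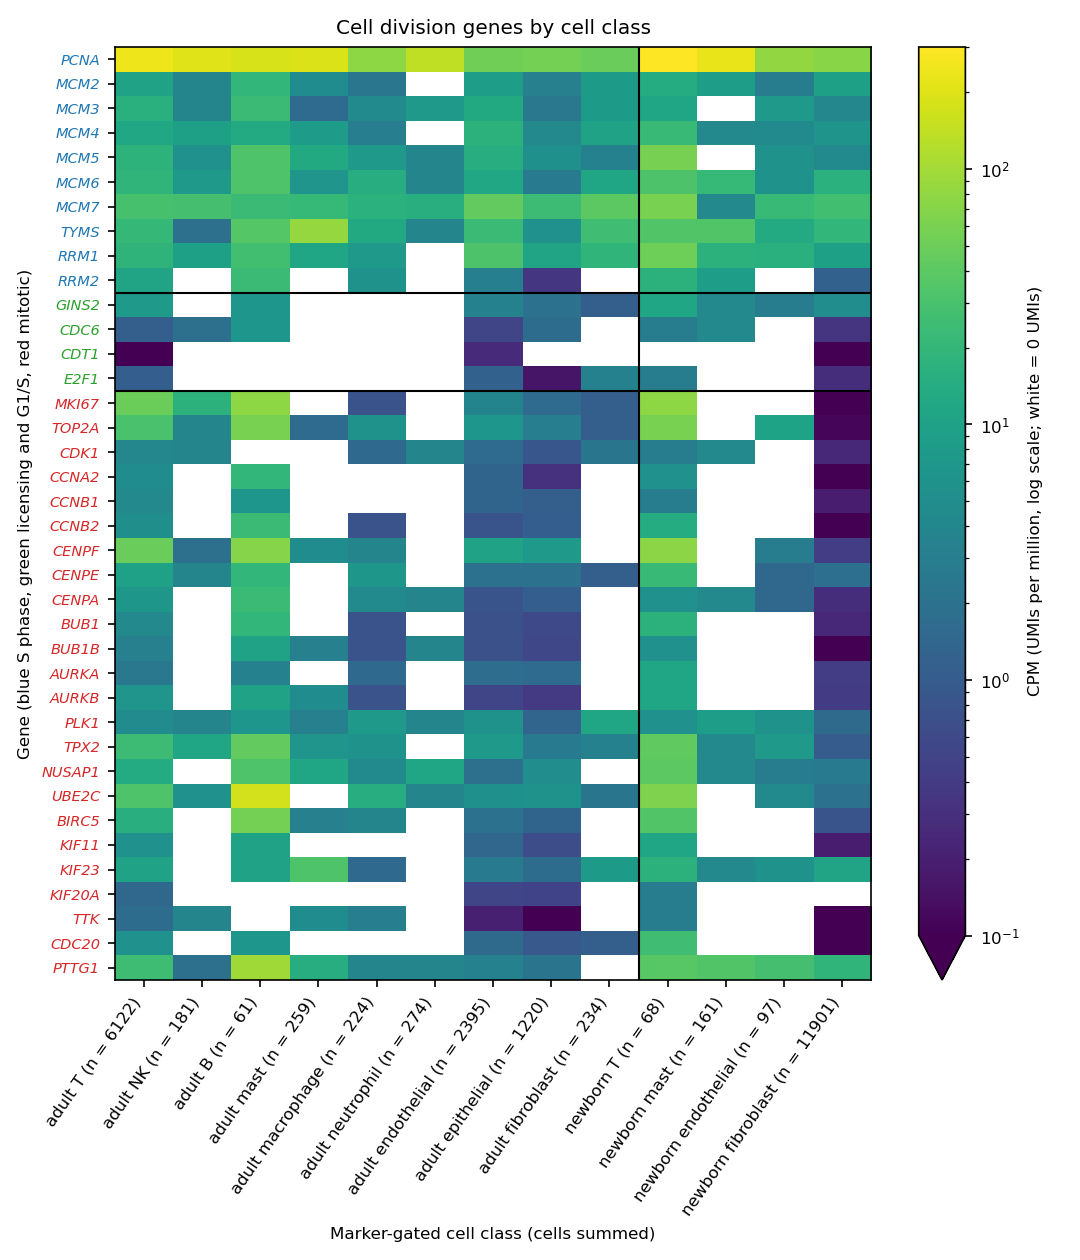
Level of each of the 38 genes (rows, grouped by role) in 13 marker-gated classes with at least 50 cells (columns), as CPM on a log colour scale from all UMIs of the class, with white for 0 UMIs. PCNA is filled in every class, whereas mitotic rows such as CCNA2 (0 UMIs in 7 of 13 classes) and KIF20A (9 of 13) are white in most.

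As a sum, S phase genes were spread far more evenly. At 1000 UMIs per cell, adult T cells held 3.29 S phase UMIs per 10000 (3.14 to 3.43), mast cells 3.53 (2.84 to 4.34), NK cells 3.80 (2.92 to 4.88), endothelial cells 2.17 (1.98 to 2.37), fibroblasts 2.26 (1.65 to 3.03), epithelial cells 1.79 (1.54 to 2.07) and newborn fibroblasts 1.87 (1.79 to 1.95). Even neutrophils, which leave the bone marrow as cells that no longer divide, held 2.21 (1.29 to 3.54), from 17 UMIs in 77 cells. Of these UMIs, PCNA gave 16 and TYMS 1, so the value is nearly PCNA alone, and 197 shallower neutrophils were dropped. The mitotic genes gave 3 UMIs in the same neutrophils. S phase UMIs outnumbered mitotic UMIs by 2.73-fold in adult T cells (2.51 to 2.98), 3.85-fold in endothelial cells (3.16 to 4.72) and 4.004-fold in newborn fibroblasts (3.64 to 4.42), but by 1.29-fold in newborn T cells (0.734 to 2.30). Without PCNA, the most abundant S phase member, and MKI67, the most abundant mitotic member, the ratio in adult T cells was 1.11.

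The share of cells that held at least 2 different mitotic members at 1000 UMIs was 1.18% in adult T cells (70 of 5957, 0.917% to 1.48%), 0.311% in endothelial cells (7 of 2252, 0.125% to 0.639%) and 0.286% in epithelial cells (3 of 1050, 0.0590% to 0.833%). None of the 199 adult fibroblasts did, which allows a share of up to 1.51% by a floor of 3 counts and 1.84% by the exact interval. Of newborn fibroblasts, 8 of 11100 did, or 0.0721% (0.0311% to 0.142%). For S phase members the same shares were 2.67% of adult T cells, 2.40% of endothelial cells, 1.43% of epithelial cells and 1.21% of newborn fibroblasts. From all UMIs, without thinning, 2.79% of adult T cells and 1.23% of newborn fibroblasts held at least 2 mitotic members.

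**Figure D2:**
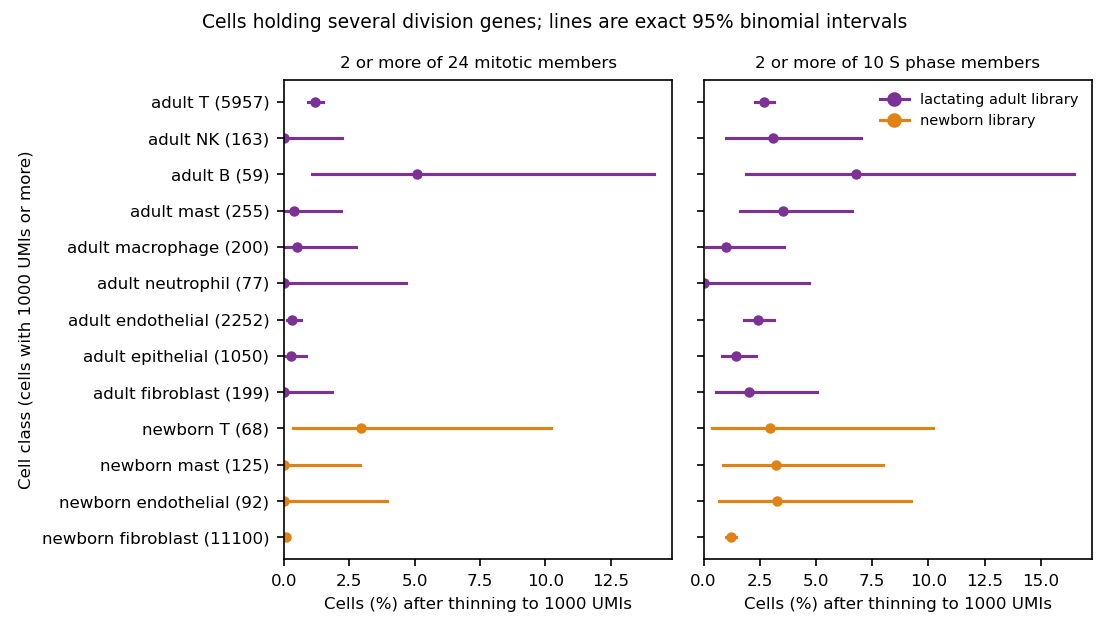
Percent of cells per class that hold at least 2 of the 24 mitotic members (left) or at least 2 of the 10 S phase members (right) after thinning to 1000 UMIs; points are shares and lines are exact 95% binomial intervals. The mitotic share is 0 in 5 classes and otherwise runs from 0.0721% in newborn fibroblasts to 5.09% in the 59 adult B cells, while the S phase shares of the 4 classes with over 1000 cells lie between 1.21% and 2.67%.

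Free RNA reaches cells that do not make it: in adult T cells, the 7 milk protein genes together stood at 22350 CPM. The part of free RNA in the division gene values was not tested. MKI67 was at 0 UMIs in adult neutrophils and mast cells, which allows up to 11.5 and 4.90 CPM (3 counts), and at 49.97 CPM in T cells. Summed mitotic members did not part mast from T cells, whose intervals overlapped as given above. Neutrophils were also the shallowest class (median 876 UMIs, against 2856 in T cells), and 0 of 274 held 2 mitotic or 2 S phase members from all UMIs. At the matched depth, however, PCNA was detected in 16.9% of neutrophils (13 of 77) and 18.9% of T cells, so its mere detection in a T cell does not set that cell apart from neutrophils.

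PCNA (ENSBTAG00000006065) was detected in 2677 adult T cells, at 246.2 CPM, and gave 61.6% of their S phase UMIs. It stood at 304.7 CPM in newborn T cells (249.5 to 368.5), 194.2 in adult mast cells, 183.2 in B cells, 141.3 in neutrophils, 71.5 in newborn fibroblasts, 53.1 in endothelial cells and 48.0 in adult fibroblasts. Among the classes just listed, lymphoid and mast cells were thus high for PCNA and stromal and vascular cells low. Adult NK cells, at 203.1 CPM, kept to this order. The intervals of adult plasma cells (75.0 CPM, 49.0 to 109.9), newborn NK cells (101.5, 52.5 to 177.4) and newborn endothelial cells (80.7, 60.8 to 105.1) overlapped. In 84.1% of the PCNA-positive adult T cells, no mitotic member was detected.

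The 6 helicase genes did not share that order. MCM7 stood at 43.8 CPM in endothelial cells (656 UMIs), 40.2 in adult fibroblasts, 29.2 in adult T cells and 26.8 in newborn fibroblasts, and at 60.4 in newborn T cells, the highest of the 13 classes. Adult endothelial cells and fibroblasts were thus above adult T cells for MCM7 and below them for PCNA. MCM4 was likewise higher in endothelial cells (17.2 CPM) than in T cells (11.8), and the T cell level was 0.685 of the endothelial one (0.572 to 0.821). MCM2, MCM3, MCM5 and MCM6 differed between these classes by 1.18- to 1.55-fold, in favour of T cells.

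Of the nucleotide enzymes, RRM1, the large subunit of ribonucleotide reductase, was lower in T cells (18.2 CPM) than in endothelial cells (31.9), a ratio of 0.569 (0.495 to 0.653). RRM2, the small subunit whose supply is limited to S phase, went the other way, at 10.9 against 3.20 CPM, or 3.39-fold (2.47 to 4.74). RRM2 was at 0 UMIs in 5 of 13 classes, among them neutrophils, NK cells and adult fibroblasts. TYMS, thymidylate synthase, was highest in adult mast cells, at 83.2 CPM (62.0 to 109; 51 UMIs in 42 of 259 cells), against 20.7 CPM in T cells and 23.8 in endothelial cells. None of those 42 mast cells held 2 mitotic members, and 35 held no mitotic member.

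Licensing genes were sparse, with 467 UMIs in adult cells and 397 in newborn cells. GINS2, a subunit of the replicative helicase complex, gave most of them, at 7.44 CPM in adult T cells, 5.11 in newborn fibroblasts, 3.34 in endothelial cells and 1.12 (1 UMI) in adult fibroblasts. CDC6, which loads the MCM ring, was found in 17 adult T cells, 16 of which also held at least 2 mitotic members. The 8 endothelial cells with CDC6 included 1 such cell. E2F1, a transcription factor of replication genes, gave 22 UMIs in adult T cells and 17 in newborn fibroblasts. CDT1 gave 8 UMIs in the whole adult library and 3 in the newborn library, too few to place in any class.

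Across all gated cells, 22 of 24 mitotic members were at least 2-fold higher in adult T cells than in adult endothelial cells, where 14.6% of all 12524 genes with at least 20 UMIs over both classes were. CCNB2, CENPA, BUB1, BUB1B, AURKB, KIF20A and TTK had fewer than 20 UMIs in endothelial cells. They reached the limit only with their T cell UMIs, so their calls follow in part from it. The same limit was applied to all genes. None was 2-fold lower, against 37.5% of all genes. Of the S phase members, 2 of 10 were higher, PCNA and RRM2, and none lower. The median log2 ratio of the mitotic members was 2.17, that of the S phase members 0.25 and that of all genes -0.59. Relative to that median gene, 23 mitotic and 3 S phase members were higher, where 23.1% of genes were. Of other genes of the pathway, 12 of 42 replication genes were higher and 3 lower (19 and 1 relative to the median gene), 34 of 66 mitotic genes higher and 4 lower (45 and 2), and 6 of 24 genes of G1 and arrest higher and 6 lower (10 and 2).

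By role, the 3 cyclins of the G2 and mitotic kinase were at 4.86 against 1.33 CPM (CCNA2), 4.36 against 1.33 CPM (CCNB1) and 5.45 against 0.801 CPM (CCNB2) in T and endothelial cells, and their catalytic partner CDK1 at 4.02 against 1.67 CPM. The mitotic kinases split. AURKB, the kinase of the chromosomal passenger complex, was 12.2-fold higher in T cells (5.997 to 28.8), and its partner BIRC5, or survivin, 7.36-fold (5.08 to 11.02). AURKA, the centrosome kinase, was at 1.43-fold (0.873 to 2.39), and PLK1 at 0.792-fold (0.589 to 1.07), the 2 mitotic members that did not reach 2-fold. TTK, a kinase of the spindle checkpoint, had 34 UMIs in T cells and 3 in endothelial cells. The checkpoint genes BUB1 and BUB1B were 5.95-fold and 4.39-fold higher in T cells.

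MKI67 (ENSBTAG00000002444), whose protein coats mitotic chromosomes, had the highest ratio, 13.4-fold (10.2 to 17.8; 49.97 against 3.74 CPM). The centromere genes CENPF, CENPE and CENPA were 4.78-, 4.65- and 8.73-fold higher in T cells. TOP2A, which untangles DNA, was 4.401-fold higher. The spindle genes TPX2 and NUSAP1 were 3.19- and 7.15-fold higher, and the motor genes KIF11, KIF23 and KIF20A 4.03-, 3.73- and 2.69-fold. The genes of protein destruction at anaphase were 5.96-fold (UBE2C), 3.56-fold (CDC20) and 7.43-fold (PTTG1, the securin that is destroyed there) higher.

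These UMIs sat in few cells. Of 6122 adult T cells, 5282 held no mitotic member, 669 held 1, 77 held 2, 10 held 3, 6 held 4 and 78 held at least 5. The cells with at least 5, called mitotic-high here by a limit set after seeing this count, were 1.27% of T cells (1.01% to 1.59%) and held 4.75% of T cell UMIs, but 84.5% of their mitotic UMIs, 62.4% of their licensing UMIs and 24.3% of their S phase UMIs. Without them, adult T cells held 0.456 mitotic UMIs per 10000 at 1000 UMIs per cell (0.403 to 0.514), and 3.09 S phase UMIs. Without such cells in both classes, 14 mitotic members still had 20 UMIs, and 6 of them were 2-fold higher in T than in endothelial cells, where 14.2% of all genes were. The mitotic-high T cells were deeper (median 10690 UMIs against 2841 in the other T cells), and the part of depth in the limit of 5 genes was not tested. At the matched depth of 1000 UMIs, the share of T cells with 2 mitotic members was 1.18% with them and 0.102% without them.

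**Figure D3:**
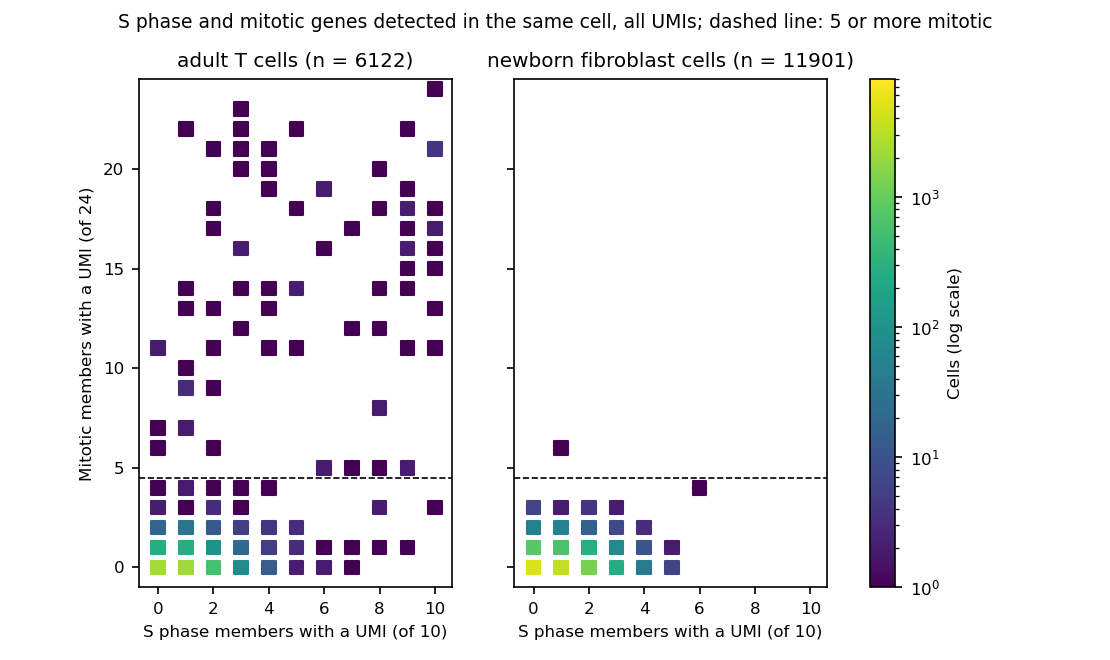
Number of S phase members (horizontal axis) and mitotic members (vertical axis) with a UMI in each cell, for 6122 adult T cells and 11901 newborn fibroblasts, with colour for the number of cells (log scale) and a dashed line at the limit of 5 mitotic members. T cells reach 24 mitotic members and spread over all S phase counts above the line, whereas 1 newborn fibroblast lies above it.

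Members differed in how closely they kept to these cells. CCNA2 was found only there among T cells (98 of 98 UMIs), and TOP2A (95.7%), CDC20 (96.5%), KIF20A (96.6%), CDC6 (95.7%) and BUB1 (94.3%) nearly so. Of PLK1 UMIs 42.3% were in these cells, of KIF23 56.8%, of AURKA 68.0% and of MKI67 86.6%. Among S phase members the share was 88.1% for RRM2 and 57.3% for MCM2, but 16.9% for PCNA, 18.2% for MCM7 and 22.1% for MCM6. The mitotic values describe how the cells were chosen. The S phase and licensing members were not used for it. All 10 S phase members were 2-fold or more higher in mitotic-high than in other T cells, where 16.4% of 10780 genes were higher and 11.1% lower. The 3 licensing members with at least 20 UMIs were higher too. Of these, CDC6 (22 UMIs against 1) and E2F1 (14 against 8) reached that limit only through the mitotic-high cells, so their calls follow in part from it. PCNA was at 874.4 against 214.9 CPM (4.07-fold, 3.77 to 4.38), MCM7 at 111.8 against 25.0 CPM (4.47-fold), TYMS at 133.7 against 15.1 CPM (8.86-fold), MCM2 at 123.3 against 4.58 CPM (26.9-fold) and RRM2 at 201.6 against 1.35 CPM (149-fold, 98.6 to 233.9).

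Further replication and mitotic genes were also higher in these cells. Of 41 further replication genes with enough UMIs, 38 were higher and none lower, for example DUT, which removes deoxyuridine triphosphate, at 1214 against 91.2 CPM and RPA3, a subunit of the single-strand binding protein, at 274.8 against 44.4 CPM. Of 64 further mitotic genes, 62 were higher and none lower. Among them, HMGB2, a chromatin protein, was at 2896 against 475.4 CPM and the tubulin gene TUBA1B at 2077 against 196.9 CPM. For these lists too, the UMI limit was applied to both groups of cells together. A gene could reach it through the mitotic-high cells alone, and could then only be called higher. How many genes did so is not given here. The cells were also chosen by mitotic members, so the count of further mitotic genes may follow in part from that choice. Genes of G1 and of cell cycle arrest split, with 7 of 24 higher and 7 lower. The antiproliferative gene BTG1 was at 1073 against 2196 CPM, the kinase inhibitor gene CDKN1A at 122.2 against 283.6 CPM and the cyclin gene CCND3 at 71.0 against 234.1 CPM, each lower in mitotic-high cells. CDK2, a kinase of the step from G1 to S phase, named here after its value was seen, was at 52.2 against 2.97 CPM.

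The 78 cells were not alike. At least 8 of the 10 S phase members were detected in 31 of them, 3 or fewer in 28, and 4 to 7 in 19. The 31 S-rich cells held 26.3 S phase and 44.8 mitotic UMIs per 10000, and the 28 S-poor cells 5.67 and 88.7. MCM2 and MCM3 had 103 and 96 UMIs in the S-rich cells and 0 in the S-poor cells, which describes the choice. The mitotic members were not used for that split, but all 78 cells were chosen by them. CENPF was at 1684 CPM in S-poor and 570.5 CPM in S-rich cells (2.95-fold, 2.53 to 3.45) and TOP2A at 1102 against 404.6 CPM (2.72-fold). UBE2C was at 1133 against 479.1 CPM (2.37-fold) and CENPA at 265.1 against 84.7 CPM (3.13-fold, 2.08 to 4.72). CCNA2 lay the other way, at 62.4 CPM in S-poor and 106.7 CPM in S-rich cells, as did AURKB at 88.4 and 128.7 CPM, and for both the interval of the ratio included 1. S-poor cells were shallower (median 6342 UMIs against 15460), which bears on how many genes are detected in a cell. The limit of 5 mitotic members also asks for a higher mitotic rate in a shallower cell. The part of depth in both splits was not tested. Of 36 T cells with at least 8 S phase members, 5 held fewer than 5 mitotic members.

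**Figure D4:**
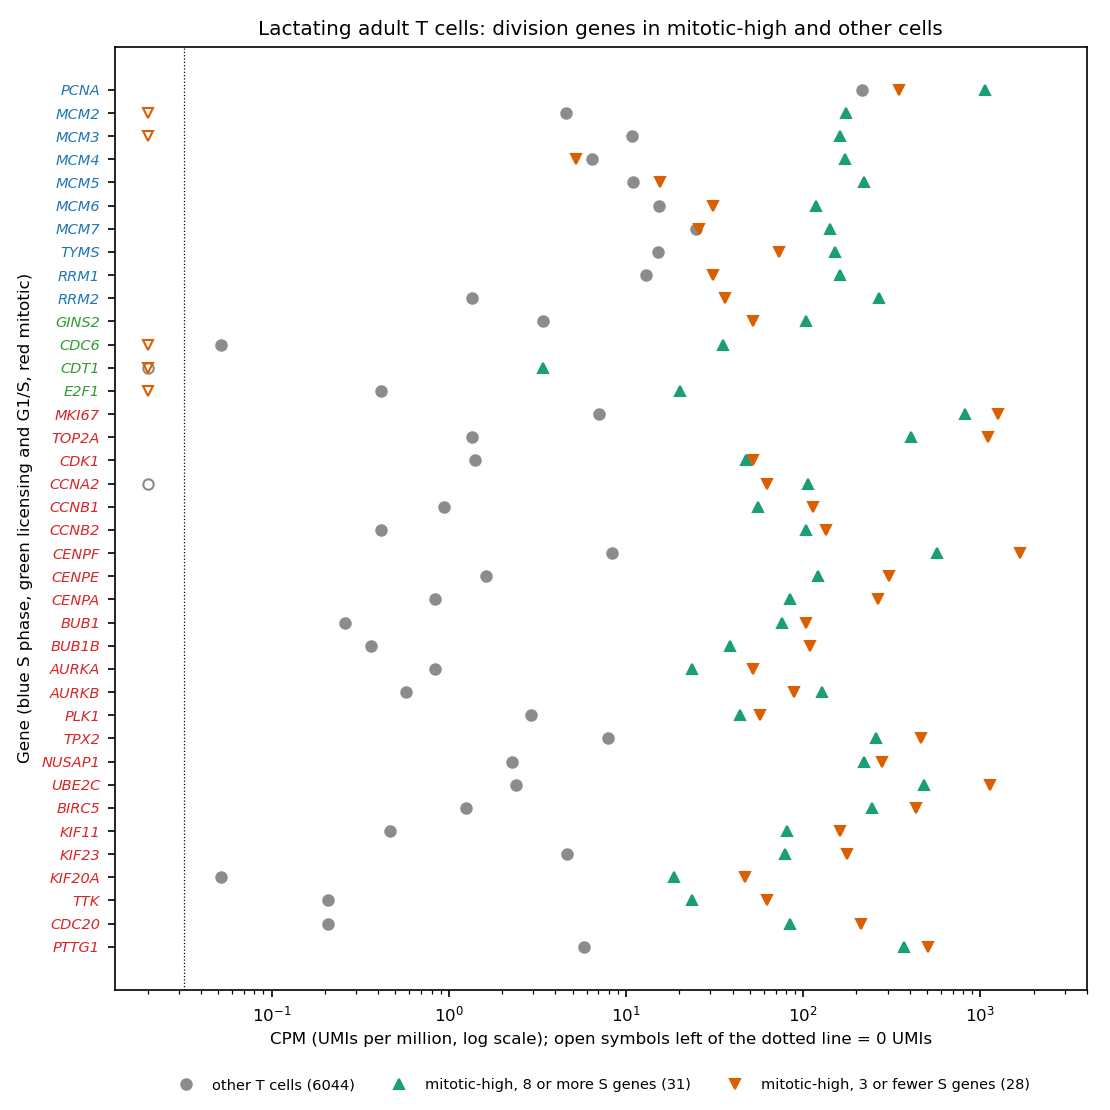
CPM of each member (rows, log axis) in 6044 other adult T cells (grey), 31 mitotic-high cells with at least 8 S phase members (green) and 28 with 3 or fewer (orange); open symbols mark 0 UMIs. Orange points lie right of green ones for most mitotic genes, such as CENPF at 1684 against 570.5 CPM, and left of them for all S phase genes.

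By coreceptor, 2.51% of T cells with CD4 but no CD8 UMIs were mitotic-high (18 of 716, 1.497% to 3.94%), 2.20% of those with CD8 but no CD4 UMIs (41 of 1866, 1.58% to 2.97%), 0.525% of those with neither (18 of 3427, 0.312% to 0.829%) and 0.885% of those with both (1 of 113, 0.0224% to 4.83%). At 1000 UMIs per cell, mitotic UMIs stood at 1.95, 1.81 and 0.687 per 10000 in the first 3 groups, and S phase UMIs at 3.15, 3.57 and 3.13. The mitotic intervals of the CD4 group (1.64 to 2.31) and the CD8 group (1.62 to 2.02) overlapped, and that of the group with neither (0.601 to 0.783) lay below both. Median depth was 2882, 3120 and 2718 UMIs, and detection of CD4 or CD8 itself depends on depth. In CPM, CD8A was at 136.9 in mitotic-high against 89.6 in other T cells, CD4 at 70.0 against 60.8 and CD3E at 735.5 against 972.5.

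Most mitotic-high cells of the adult library were T cells, its largest class. As a share of their class they were 1.27% of T cells, 4.92% of B cells (3 of 61, 1.03% to 13.7%), 5.88% of plasma cells (2 of 34, 0.721% to 19.7%), 0.459% of endothelial cells (0.230% to 0.820%) and 0.492% of epithelial cells (0.181% to 1.07%). The adult library held 124 in all: 78 T, 11 endothelial, 6 epithelial, 3 B, 2 plasma and 1 macrophage, with 9 in no gate and 14 in several gates. No NK cell, neutrophil, mast cell or fibroblast was among them. The exact intervals allow up to 2.02% of 181 NK cells, 1.34% of 274 neutrophils, 1.41% of 259 mast cells and 1.56% of 234 fibroblasts. Each of these limits lies above the 1.27% of T cells. Of the 14, 4 passed the B and plasma gates and 10 the T gate with another, and such cells may be 2 cells in 1 droplet, which was not tested. The 11 endothelial cells held 13.9 S phase and 24.3 mitotic UMIs per 10000, and 6 of them held at least 8 S phase members. The 6 epithelial cells held 2.72 and 27.4, and none held 8 S phase members. In the other endothelial cells the mitotic rate from all UMIs was 0.271 per 10000.

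In epithelial cells, division genes took a smaller share of UMIs where milk genes were high. The 244 cells with at least 30% of their UMIs from 7 milk protein genes gave 1 mitotic UMI at matched depth (0.0415 per 10000, 0.00105 to 0.231) and 0.498 S phase UMIs per 10000, and the 976 with less gave 0.581 mitotic (0.427 to 0.773) and 2.18 S phase UMIs. In milk-rich cells CENPF had 1 UMI and CCNB1, AURKB and CDC20 had 0, against 186, 29, 10 and 24 UMIs in the milk-poor cells. By detection from all UMIs the groups were closer: 180 of 244 milk-rich and 704 of 976 milk-poor cells held no mitotic member, and 4.51% and 7.58% held at least 2, at median depths of 40830 and 9582 UMIs. Milk genes took 702100 CPM of the milk-rich cells, which lowers every other rate, and the part of that share was not tested.

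Of the 61 B cells, 3 were mitotic-high, with 33.6 mitotic UMIs per 10000 from all UMIs, and the rest held 0.763. UBE2C was at 173.2 CPM there (52 UMIs in 4 cells), PTTG1 at 96.6 CPM (29 UMIs in 4 cells) and MKI67 at 76.6 CPM (23 UMIs in 8 cells). Adult B or newborn T cells were the highest of the 13 classes for 20 of 24 mitotic and 9 of 10 S phase members. These were the smallest of the 13 classes (61 and 68 cells), each with 3 mitotic-high cells. The same share over all genes is not given here. The intervals of the first and second class overlapped for all members except UBE2C, PTTG1 and CENPA, all 3 highest in B cells. Among other genes of the pathway, DUT (286.4 CPM) and RPA3 (136.5) led the replication genes in B cells, HMGB2 (919.2) and TUBA1B (289.7) the mitotic genes, and BTG1 (1079) and CDKN1A (323.1) those of G1 and arrest.

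The mitotic UMIs of mast cells came from other genes. Of their 56 mitotic UMIs, KIF23 gave 20 (32.6 CPM, 19.9 to 50.4), PTTG1 9 and NUSAP1 7, while MKI67, CCNA2, CCNB1, CDK1 and UBE2C were at 0. Of the 13 mast cells with KIF23, 12 held no other mitotic member. KIF23 overlaps PAQR5, and TYMS overlaps ENOSF1, in RefSeq.

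In newborn fibroblasts, S phase members were detected in many cells and most mitotic members in few. PCNA was detected in 3135 of the 11901 cells (71.5 CPM), MCM7 in 1448 (26.8 CPM), TYMS in 1090 (19.9 CPM) and MCM6 in 895 (16.6 CPM). MKI67 gave 6 UMIs in 6 cells (0.1002 CPM), TOP2A 7 (0.117 CPM), CCNA2, CCNB2, BUB1B and CDC20 5 each, and KIF20A 0. At matched depth 134 cells held 2 S phase members, 8 held 2 mitotic members and none held both, whereas in adult T cells the counts were 159, 70 and 21. From all UMIs, 1936 newborn fibroblasts held 2 S phase members and 33 of those (1.71%) also 2 mitotic members, against 99 of 885 (11.2%) in T cells.

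The mitotic UMIs they did hold came from few genes. PTTG1 (ENSBTAG00000012184) gave 1123 of 2547 (44.1%) and KIF23 (ENSBTAG00000009983) 646 (25.4%), followed by NUSAP1 with 162 and UBE2C with 118. In adult T cells, by contrast, the first 4 genes, MKI67, CENPF, UBE2C and TOP2A, gave 50.2%. Of the 892 newborn fibroblasts with PTTG1, 802 (89.9%) held no other mitotic member, against 44.1% of the 170 PTTG1-positive adult T cells. For KIF23 the figures were 408 of 480 (85.0%) and 47.1% of 136. PTTG1 was found in the other newborn classes too, at 34.6 CPM in mast cells, 27.9 in endothelial cells and 37.4 in T cells, against 18.8 in fibroblasts.

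Of 11901 newborn fibroblasts, 1 was mitotic-high (0.00840%). It had 5193 UMIs and held CENPF, CENPA, TPX2, NUSAP1, KIF23 and CDC20 with PCNA as its only S phase member. The newborn library held 10 mitotic-high cells in all, of which 3 were T cells, 1 an NK cell, 1 in no gate and 4 in several gates (3 fibroblast with NK and 1 NK with plasma). In the 3 T cells, 22, 17 and 10 mitotic members were found, and 2 of them held at least 9 S phase members. The 3 T cells held 53.99 mitotic UMIs per 10000 from all their UMIs, and the rest of the 68 held 0.353. DUT (201.2 CPM) and SLBP (100.6), HMGB2 (641.1) and TUBA1B (339.2), and BTG1 (1107) and CCND3 (166.7) led the 3 further lists in newborn T cells. The fibroblast marker list stood at 1130 CPM in these T cells against 28240 in newborn fibroblasts, and its part in their values was not tested.

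Newborn and adult fibroblasts were compared over all their UMIs, 59893322 and 895727. S phase members summed to 170.1 CPM in newborn and 173.0 CPM in adult fibroblasts, with a ratio of 0.983 (0.839 to 1.16), and mitotic members to 42.5 and 31.3 CPM, a ratio of 1.36 (0.939 to 2.05). No S phase member was 2-fold higher or lower, where 6.84% of 12779 genes were higher and 34.6% lower. With 0.5 counts added to each side, the median gene was lower in newborn fibroblasts, by a log2 ratio of -0.68. The S phase members had a median of -0.10. The part of the added counts and of the unequal UMI totals in these medians was not tested. Relative to the median gene, PCNA, MCM5 and MCM6 were 2-fold higher, where 16.1% of genes were. PCNA was at 71.5 against 48.0 CPM (1.49-fold, 1.10 to 2.06), MCM7 at 26.8 against 40.2 CPM (0.666, 0.479 to 0.955), RRM1 at 9.62 against 19.0 CPM (0.507, 0.314 to 0.876) and TYMS at 19.9 against 25.7 CPM (0.775, 0.514 to 1.23).

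Of the 24 mitotic members, 13 had fewer than 20 UMIs over both libraries and were not compared. Of the other 11, PTTG1 was higher, with 1123 UMIs against 0 adult UMIs, at least 5.60-fold higher against a floor of 3 counts in the adult class. PLK1 was lower, at 1.57 against 11.2 CPM (0.141, 0.0732 to 0.303), and TPX2 at 1.04 against 3.35 CPM, with an interval that included 1 (0.309, 0.101 to 1.54). KIF23 was at 10.8 against 7.82 CPM (1.38, 0.666 to 3.45). CENPF, AURKA, AURKB, NUSAP1 and BIRC5 had 0 adult UMIs and reached 20 UMIs through the newborn class alone. With 3 counts in place of 0 their ratios were set to 1, so none of them could be called. Of the licensing members, E2F1 was lower (0.284 against 3.35 CPM, from 17 and 3 UMIs, 0.0848, 0.0245 to 0.451), and GINS2 was 4.58-fold higher with 306 UMIs against 1 (0.815 to 181). Relative to the median gene, CENPE and KIF23 were 2-fold higher as well.

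**Figure D5:**
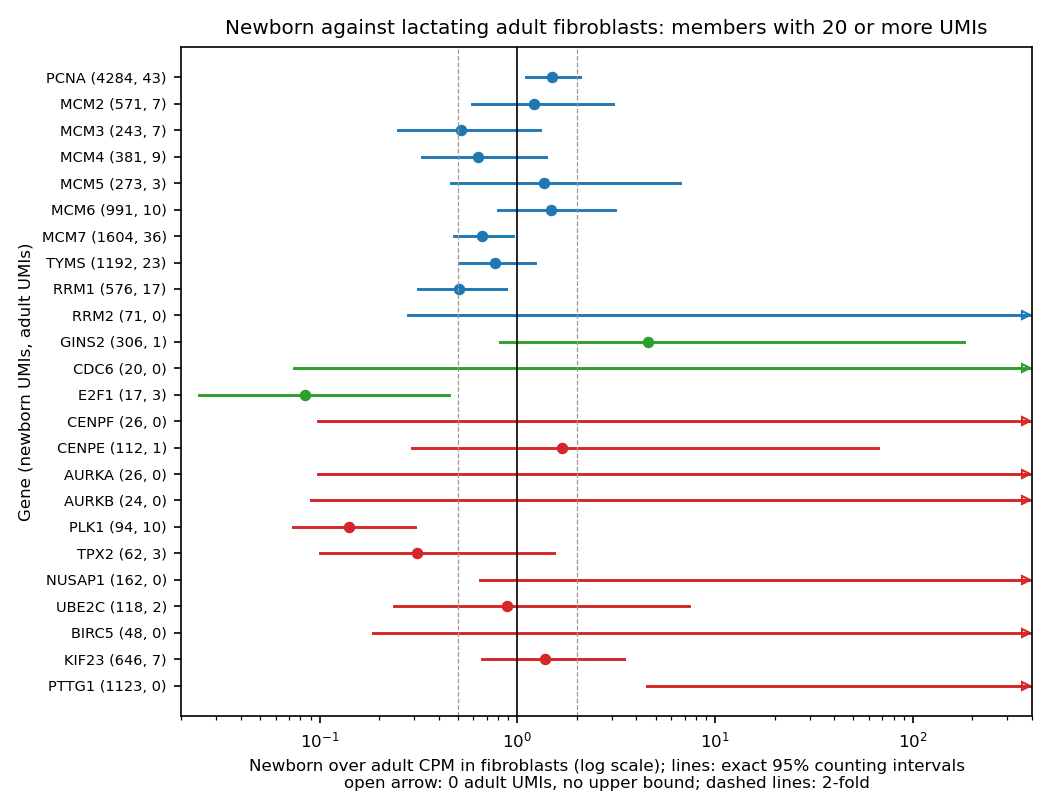
Ratio of newborn to adult CPM in fibroblasts (log axis) for the 24 members with at least 20 UMIs over both libraries, with exact 95% counting intervals and each gene's newborn and adult UMIs in brackets. Blue S phase genes lie between 0.507 and 1.49 apart from RRM2 with 0 adult UMIs, and PTTG1 is the gene whose interval lies wholly above 2-fold.

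Against the same 6.84% of all genes higher and 34.6% lower, 4 of 39 further replication genes were higher and 8 lower, 5 of 50 mitotic genes higher and 11 lower, and 5 of 24 genes of G1 and arrest higher and 5 lower. Relative to the median gene the counts were 10 and 2, 14 and 6, and 10 and 4, where 16.1% of all genes were higher and 15.8% lower. STMN1, a tubulin-binding protein, was at 110.4 against 6.70 CPM (16.5-fold, 7.57 to 44.9) and the midzone gene PRC1 at 10.2 against 1.12 CPM, from 1 adult UMI (9.11, 1.63 to 360.3). TACC3, a spindle protein, was at 0.634 against 8.93 CPM (0.0710, 0.0326 to 0.176) and KIF18A at 0.367 against 2.23 CPM (0.165, 0.0404 to 1.44). CHAF1B, of the histone chaperone CAF-1, had 738 UMIs against 0, at least 3.68-fold higher, and ASF1B was at 3.22 against 1.12 CPM (2.89, 0.512 to 114.6). TK1, thymidine kinase, was at 2.22 against 8.93 CPM (0.249, 0.123 to 0.588). Among genes of arrest and growth, MYC was at 728.9 against 272.4 CPM (2.68, 2.36 to 3.05) and CDKN1A at 800.5 against 315.9 CPM (2.53, 2.25 to 2.86), while the kinase inhibitor genes CDKN2C and CDKN2D were at 0.156 (0.102 to 0.248) and 0.287 (0.179 to 0.489) of the adult level.

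In mast cells 3 members could be compared, where 10.7% of 3667 genes were 2-fold higher in the newborn and 19.6% lower. PCNA was at 229.4 against 194.2 CPM (1.18, 0.838 to 1.65), TYMS at 34.6 against 83.2 CPM (0.416, 0.171 to 0.883) and KIF23 at 4.33 against 32.6 CPM (0.133, 0.00320 to 0.829), from 1 newborn UMI. Summed S phase members were at 328.9 against 344.4 CPM (0.955, 0.725 to 1.25). Of the further lists, 0 of 7 replication genes were higher and 4 lower, 0 of 8 mitotic genes higher and 2 lower, and 6 of 16 genes of G1 and arrest higher and 2 lower. CKS2, a subunit of cyclin-dependent kinases, was at 203.4 against 1169 CPM (0.174, 0.127 to 0.234) and SMC2, of the condensin complex, at 13.0 against 29.4 CPM (0.442, 0.0834 to 1.51). The primase subunit gene PRIM2 was at 8.66 against 35.9 CPM (0.241, 0.0275 to 0.981) and RPA3 at 13.0 against 40.8 CPM (0.318, 0.0615 to 1.04). GADD45A, induced by DNA damage, was at 311.6 against 99.6 CPM (3.13, 2.19 to 4.48), and MDM2 at 251.0 against 84.9 CPM (2.96, 1.999 to 4.39). The kinase inhibitor gene CDKN1B was at 21.6 against 63.7 CPM (0.340, 0.105 to 0.863) and RBL2, a relative of the retinoblastoma gene, at 13.0 against 32.6 CPM (0.398, 0.0757 to 1.34).

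The smaller newborn classes gave summed values only. In T cells mitotic members were at 597.9 CPM in newborn and 321.1 CPM in adult cells (1.86, 1.61 to 2.14) and S phase members at 606.6 against 399.6 CPM (1.52, 1.32 to 1.74), from 68 newborn cells of which 3 were mitotic-high. Outside mitotic-high cells the newborn values were not the higher ones, with 0.353 mitotic UMIs per 10000 in newborn and 0.522 in adult T cells, and 2.99 and 3.18 S phase UMIs. No interval is given for these rates, so their order may lie within counting error. In endothelial cells mitotic members were at 70.5 against 65.5 CPM (1.08, 0.789 to 1.44) and S phase members at 158.6 against 221.4 CPM (0.716, 0.586 to 0.867).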

How the data were processed

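The 2 cell-by-gene tables of UMI counts were analysed as deposited by the authors, and per the submitters' processing notes these come from Cell Ranger 3.1.0. Build, annotation and strand of counting were not given in the sources used here. The genes and lists were chosen with earlier results of these data known.

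Barcodes with at least 300 genes and at most 20% of UMIs from 13 mitochondrial genes were kept. A cell passed a lineage's gate with 2 of its markers and a summed marker rate of at least 20% of the mean in cells with 3 markers; of 110 markers, 107 were in the table. Cells passing several gates were left out, which also removes doublets of unlike cells; Scrublet's own threshold marked 0 cells, so it served only as an alternative. UMIs were summed per class, or over cells thinned to 1000 UMIs. Intervals are exact Poisson, Clopper-Pearson or conditional binomial (95%) and cover counting error only. A gene was called at 2-fold with at least 20 UMIs over both sides, with 3 counts in place of 0. A ratio that this floor turned to the other side of 1 was set to 1 and not called. Median log2 ratios, and the median gene, were taken with 0.5 counts added to each side. The limit of 5 mitotic members and the split by S phase members were set after seeing the data.

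All 38 members are named. Values in full were given for the 4 members with most UMIs per role, and of other lists for the 2 with most UMIs in the class with the highest mitotic rate of each library and the 2 with the largest stage ratio in each direction; members beyond these were named after their values were seen. A gene that this rule selects is not reported here. The ratio step was tested on simulated data. Python 3.11.15, numpy 2.4.6, scipy 1.17.1, pandas 2.3.3 and scanpy 1.11.5 were used. Promoter motifs and sequences were not analysed here.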

Additional observations from a re-analysis of the deposited data

How the results depend on the processing

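With 1 library per stage, no library could be left out, and no value has a replicate error. No paired analysis was possible because each stage has 1 library and no value comes from a test. Of 272 values recomputed over 26 results and 20 settings, 201 stayed within the counting interval of the value reported (counts of genes within 1.5 times) and 71 moved. The order of classes turned in the comparisons of mast with T cells and of T cells with newborn fibroblasts given below. The settings on milk genes, on cells with 5 mitotic members and on scaling of T over endothelial cells were chosen after seeing the data. The shares depend on both the depth of thinning and the number of members needed.

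Thinned to 500 UMIs, adult T cells held 3.463 S phase UMIs per 10000, with 0.8984% of cells holding 2 mitotic and 0.8984% holding 2 S phase members. The share with 2 S phase members was then 0.7933% in endothelial, 0.3861% in mast and 0.3109% in newborn fibroblast cells, and mast cells held 0.6178 mitotic UMIs with 0% holding 2 mitotic members. Thinned to 2000 UMIs, T cells held 1.369 mitotic UMIs per 10000, 1.967% with 2 mitotic and 7.278% with 2 S phase members and a ratio of S phase to mitotic UMIs of 2.425. The S phase share was 7.5% in endothelial, 12.34% in mast and 3.741% in newborn fibroblast cells, and newborn fibroblasts held 1.743 S phase UMIs and 0.2057% with 2 mitotic members.

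With 1 member needed, the mitotic and S phase shares were 5.338% and 26.42% in T, 2.931% and 17.9% in endothelial, 9.412% and 27.84% in mast and 4.342% and 16.75% in newborn fibroblast cells. With 3 needed, the S phase shares were 0.3022%, 0.444%, 0% and 0.08108% in the same order, and the mitotic share of newborn fibroblasts 0.009009%. Mast cells thus exceeded T cells with 1 mitotic member needed and not with 2.

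With a gate of 3 markers, T cells held 1.522 mitotic and 3.46 S phase UMIs, 1.619% with 2 mitotic members and a ratio of 2.273, and mast cells 1.667 mitotic UMIs and 1.19% with 2 S phase members, so that mast cells lay above T cells in mitotic UMIs and not below them. With the highest Scrublet scores removed, T cells held 1.301 mitotic UMIs. With milk genes removed before thinning, T cells held 1.394 mitotic UMIs with a ratio of 2.455, and endothelial cells 2.448 S phase UMIs.

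Without the most abundant member of each list in the class, T cells held 0.9921 mitotic and 1.1 S phase UMIs, 0.7554% with 2 S phase members and a ratio of 1.108. Endothelial cells held 0.4663, 1.665 and 1.643%, mast cells 0.5882, 1.647 and 0.3922%, and newborn fibroblasts 0.2739, 1.17 and 0.6306%. The mitotic member removed thus differed by class, with MKI67 in T cells, KIF23 in mast cells and PTTG1 in newborn fibroblasts. T cells had more S phase UMIs than newborn fibroblasts with PCNA and no more without it. Without cells of 5 mitotic members, T cells held 0.4559 mitotic and 3.091 S phase UMIs, 0.1021% and 2.194% with 2 members and a ratio of 6.78, endothelial cells 0.2767 mitotic UMIs, 0.04462% and a ratio of 7.548, and 6 mitotic members were higher in T than in endothelial cells.

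In newborn against adult fibroblasts, where 2 members were higher and 3 lower, scaling by the median of ratios gave 7 higher, thinned cells 1 higher and 6 lower, and no UMI limit 7 lower. In mast cells, where 0 were higher and 2 lower, the lower count was 1 at a minimum of 50 UMIs, 1 at 4-fold and 1 in thinned cells, and no UMI limit gave 2 higher and 4 lower. The causes of these moves were not tested beyond what each setting changes.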
